A study of Homo sapiens with 12 samples.

Results

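HT29, an established human colon adenocarcinoma line, was profiled after 24 h and after 8 h with 70 nM methotrexate, and the difference between these time points is described here across 18377 genes. The comparison uses the 3 arrays titled for 24 h and the 3 arrays titled for 8 h, which are 6 of the 12 arrays of the series. The other arrays are 3 controls, taken as 0 h, and 3 arrays after 48 h with the same dose. All cells were grown in F12 medium with serum, and no genotype other than the line itself was given. Both groups compared carry the drug, so their difference is between a longer and a shorter exposure. No untreated culture of 8 or 24 h was used here, and time with methotrexate and time in culture therefore cannot be told apart. The replicates were called biological in the titles, without saying whether they were separate cultures. If they were not, the p-values measure a spread that may be technical.

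Methotrexate is an antifolate. It lowers the supply of reduced folates, the carbon donors needed to make thymidylate and purines. Cells short of these precursors cannot copy DNA at the usual rate, and purine supply also limits the making of ribosomal RNA. Histone messages that depend on replication are made in S phase together with DNA, while ribosome biogenesis genes are linked to growth signals and to MYC. The integrated stress response, run by the transcription factor ATF4, and the interferon-stimulated genes, run by the ISGF3 complex, which holds IRF9, are programmes that stressed cells turn up or down.

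Each value was a log2 ratio to the median of the control arrays, so a value of 0 means the control median and absolute levels were not known. The HT29 label could thus not be checked against the level of its markers. Between replicates, genes had a median SD of 0.0654 at 8 h and 0.066 at 24 h, and the median standard error (SE) of the difference was 0.0659. Calls rest on limma with Benjamini-Hochberg adjustment and an adjusted p under 0.05. By this rule 3564 genes (19.4%) differed between 24 and 8 h, 1836 (9.99%) higher and 1728 (9.4%) lower at 24 h. Most differences were small: the median size among called genes was 0.33, and only 31 genes rose and 23 fell at least 2-fold. Of those 23 falls, 9 were replication-dependent histones and 9 were small nucleolar RNAs. The 3 values at 24 h all lay above the 3 values at 8 h for 3066 genes (16.7%) and all below for 3045 (16.6%). Replicate 1 at 8 h and replicate 2 at 24 h had the lowest array weights of their groups, 0.457 and 0.464 against 1.17 to 1.75 for the other 4. Without both of them 2792 genes were called.

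Promoters of genes from 5 lists are shown first, so that the letters these lists share can be seen beside their values. For each list the called members with the largest differences were taken whose 250 bases before the start of transcription hold the motif searched. The sequences are those of RefSeq on GRCh38.p14, written 5′ to 3′ on the gene's strand, with the matches to the motif, on either strand, in capitals. H2BC14 (chr6:27814772-27815021, plus strand) and H2AC13 (chr6:27807923-27808172, plus strand) are histone genes, and the capitals mark CCAAT, the box bound by NF-Y, and TATAAA.
H2BC14: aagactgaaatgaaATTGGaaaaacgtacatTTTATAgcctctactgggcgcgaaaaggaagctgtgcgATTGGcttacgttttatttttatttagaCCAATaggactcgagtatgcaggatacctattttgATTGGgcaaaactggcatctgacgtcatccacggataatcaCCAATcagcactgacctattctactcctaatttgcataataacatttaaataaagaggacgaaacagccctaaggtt
H2AC13: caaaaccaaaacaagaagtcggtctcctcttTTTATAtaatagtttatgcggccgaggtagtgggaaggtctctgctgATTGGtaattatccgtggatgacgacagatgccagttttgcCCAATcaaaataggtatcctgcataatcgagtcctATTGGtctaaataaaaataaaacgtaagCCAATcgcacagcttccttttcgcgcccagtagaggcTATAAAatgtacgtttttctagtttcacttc
UTP20 (chr12:101279855-101280104, plus strand) and NAT10 (chr11:34105379-34105628, plus strand) act in the maturation of ribosomal RNA, and the capitals mark the E-box CACGTG, a site for MYC and related factors.
UTP20: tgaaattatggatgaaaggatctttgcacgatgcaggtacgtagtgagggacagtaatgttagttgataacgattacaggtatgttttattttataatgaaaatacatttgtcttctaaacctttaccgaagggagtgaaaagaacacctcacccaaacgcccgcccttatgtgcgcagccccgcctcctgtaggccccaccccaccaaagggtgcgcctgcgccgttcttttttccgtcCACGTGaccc
NAT10: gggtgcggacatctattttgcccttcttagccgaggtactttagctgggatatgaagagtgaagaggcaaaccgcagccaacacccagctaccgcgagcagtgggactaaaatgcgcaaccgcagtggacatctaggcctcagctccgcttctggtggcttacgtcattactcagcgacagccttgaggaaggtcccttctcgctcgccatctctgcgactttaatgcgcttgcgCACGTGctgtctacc
IFIT3 (chr10:89327747-89327996, plus strand) and IFI27 (chr14:94110486-94110735, plus strand) are interferon-stimulated, and the capitals mark the interferon-stimulated response element, for which the element's paired GAAA cores were searched with any pair of bases between them.
IFIT3: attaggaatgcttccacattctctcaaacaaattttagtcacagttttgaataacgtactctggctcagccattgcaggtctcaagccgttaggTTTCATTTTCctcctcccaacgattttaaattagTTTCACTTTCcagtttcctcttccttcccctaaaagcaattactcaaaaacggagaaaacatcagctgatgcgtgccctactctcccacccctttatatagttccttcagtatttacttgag
IFI27: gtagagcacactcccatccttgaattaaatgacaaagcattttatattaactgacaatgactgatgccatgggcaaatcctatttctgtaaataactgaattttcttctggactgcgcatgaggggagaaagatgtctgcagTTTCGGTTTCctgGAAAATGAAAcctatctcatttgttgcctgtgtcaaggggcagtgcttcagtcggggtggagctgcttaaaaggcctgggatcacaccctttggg
CDC20 (chr1:43358731-43358980, plus strand), an activator of the anaphase-promoting complex, holds CCAAT and the cell cycle homology region TTTGAA, both in capitals. ASNS (chr7:97872409-97872658, minus strand), asparagine synthetase, holds the ATF4 composite site, searched as TGATGNAA and in capitals.
CDC20: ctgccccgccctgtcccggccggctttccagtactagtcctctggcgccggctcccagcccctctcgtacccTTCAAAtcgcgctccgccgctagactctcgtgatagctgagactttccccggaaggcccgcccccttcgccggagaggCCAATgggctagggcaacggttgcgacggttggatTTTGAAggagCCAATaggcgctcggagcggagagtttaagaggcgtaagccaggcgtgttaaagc
ASNS: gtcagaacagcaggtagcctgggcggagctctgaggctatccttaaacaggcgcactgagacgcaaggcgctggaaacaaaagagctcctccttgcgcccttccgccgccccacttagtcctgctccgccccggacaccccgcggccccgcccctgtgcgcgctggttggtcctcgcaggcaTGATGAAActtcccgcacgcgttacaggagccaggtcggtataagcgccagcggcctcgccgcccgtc

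Over the longer window of 250 bases before to 50 bases after the start, both strands were searched in all 27305 promoters of the RefSeq table. TATAAA stood in 30 of 43 histone promoters (69.8%) against 12.0% of all promoters. CCAAT stood in 39 of the same 43 (90.7%) against 35.7%, and also in 30 of 39 promoters of mitosis genes (76.9%). The E-box stood in 14 of 35 ribosome biogenesis promoters (40.0%) against 7.43%. The interferon element stood in 27 of 38 promoters of interferon-stimulated genes (71.1%) against 3.65%. TTTGAA stood in 28 of 39 mitosis promoters (71.8%) against 15.4%, and an E2F site, searched as TTCCCGC or TTGGCGC, in 31 of 49 replication promoters (63.3%) against 9.33%. The ATF4 site was rarer, with 6 of 30 integrated stress response promoters (20%) against 3.67%. Among 14210 promoters of measured genes, shares were 8.97% for TATAAA, 36.3% for CCAAT, 8.88% for the E-box and 3.03% for the interferon element. For the TTTGAA, E2F and ATF4 sites they were 11.9%, 12.6% and 2.54%. These shares describe the letters of the lists and were not related to the size of the differences.

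Replication-dependent histones, which package newly made DNA, had the lowest median of the 37 lists. Of 48 measured genes, 44 fell (91.7%, against 9.4% of all genes) and 4 were not called. The list median was -0.64 against -0.0005 for all genes. On the single arrays the list median lay at -0.35 to -0.32 after 8 h and at -1.05 to -0.92 after 24 h, so the groups did not overlap. H3C12, a histone H3 gene, was -0.76, -0.53 and -0.51 on the 8 h arrays and -2.06, -2.13 and -2.13 on the 24 h arrays. It fell by 1.51 (SE 0.07, adjusted p = 1.78e-07, n = 3 per group), a 2.84-fold lower level. H1-5, a linker histone, went from -0.18, -0.01 and -0.11 to -1.52, -1.89 and -1.38, and here the spread at 24 h was wider than at 8 h. It fell by 1.5 (SE 0.11, adjusted p = 2.8e-06). H2BC14, whose promoter is shown above, was -0.54, -0.47 and -0.53 at 8 h and -1.69, -1.74 and -1.68 at 24 h. It fell by 1.19 (SE 0.06) with replicates that lay close together in both groups. All classes were among the falls, since H2AC13 (-1.16), H2BC7 (-1.15), H1-2 (-1.05), H3C10 (-1.05), H4C2 (-1.05) and H3C1 (-1.03) followed. Histone genes are near-identical in places and lie in clusters, so probes may not tell all copies apart.

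**Figure D1:**
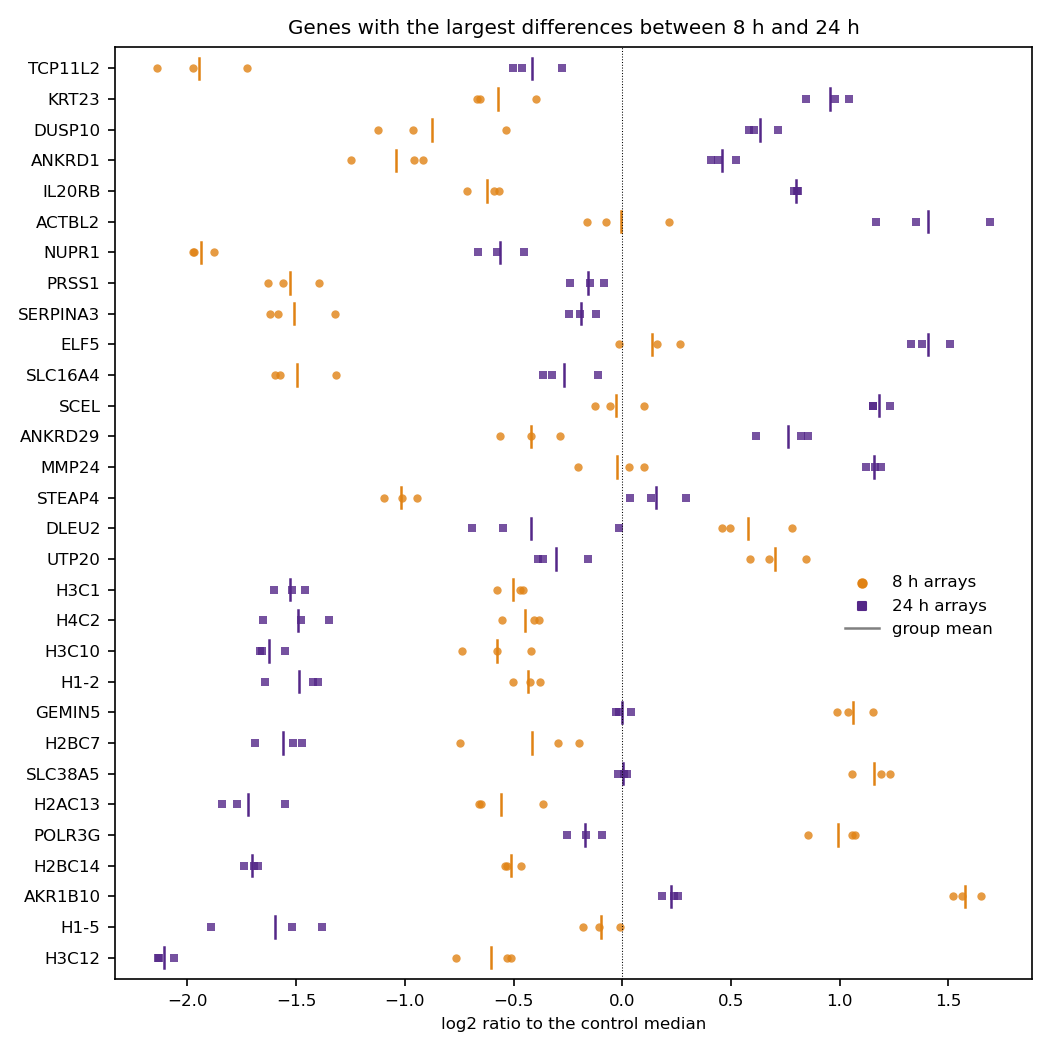
The 15 largest rises and 15 largest falls between 8 h and 24 h among genes other than small RNAs, with the log2 ratio to the control median on the x axis. Each point is 1 array and each bar the mean of 3 arrays, and the 8 h and 24 h arrays do not overlap for any gene shown, with H3C12 at -2.13 to -2.06 and KRT23 at 0.84 to 1.04 after 24 h.

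The enzymes of DNA replication moved less than the histones. Of 57 genes of replication and of the G1/S step, 19 fell (33.3%) and 2 rose (3.51%), with a median of -0.13. Over all genes 9.4% fell and 9.99% rose. The list median stayed above control on all 6 arrays, at 0.49 to 0.57 after 8 h and 0.43 to 0.45 after 24 h. The count of falls rested in part on replicate 1 at 24 h, since 12 fell without it. CCNE2, cyclin E2, which drives entry into S phase, was 0.95, 0.94 and 1.07 at 8 h and 0.21, 0.39 and 0.21 at 24 h. It fell by 0.71 (SE 0.06, adjusted p = 6.23e-06). ORC5, of the origin recognition complex, fell by 0.55 (SE 0.07), POLA1, the catalytic subunit of polymerase alpha, by 0.51 (SE 0.10) and MCM6, of the replicative helicase, by 0.48 (SE 0.07). CDT1, which loads that helicase, ran the other way, from 0.55, 0.47 and 0.44 to 1.25, 1.03 and 1.18. It rose by 0.66 (SE 0.11, adjusted p = 0.000613). E2F1, the transcription factor behind many of these genes, did not pass the test (0.15, SE 0.05, adjusted p = 0.0892), and neither did CCND1, cyclin D1 (0.15, SE 0.05, adjusted p = 0.0522). Cells in bulk were measured, so fewer cells of a phase and less message per cell cannot be told apart.

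Of 46 mitosis genes, which serve chromosome segregation, 14 fell and 1 rose, with a median of -0.11, against 9.4% of all genes that fell, and the list median lay at -0.04 to 0.06 on the 8 h arrays and -0.12 to -0.09 on the 24 h arrays. KIF20A, a kinesin of late mitosis, was -0.21, -0.39 and -0.30 at 8 h and -1.19, -0.99 and -1.16 at 24 h. It fell by 0.81 (SE 0.08, adjusted p = 2.03e-05), and its 3 values at 24 h lay well under those at 8 h. PTTG1, securin, fell by 0.61 (SE 0.06), CDC20 by 0.53 (SE 0.06), AURKA, a spindle kinase, by 0.37 (SE 0.06) and CCNB1, cyclin B1, by 0.34 (SE 0.05). MKI67, the proliferation marker, was 0.45, 0.25 and 0.29 and then -0.14, 0.15 and -0.08. Its fall of 0.36 (SE 0.11, adjusted p = 0.0409) was not called in 7 alternative fits, among them those without replicate 1 at 8 h (adjusted p = 0.147), replicate 2 (0.06) or replicate 3 (0.0817) at 8 h and without replicate 1 (0.158) or replicate 3 (0.131) at 24 h. Of 29 DNA repair genes 9 fell (31.0%, against 9.4% of all genes) and 1 rose (3.45%, against 9.99%), with a median of -0.12. MSH6, of mismatch repair, fell by 0.52 (SE 0.09) and ATR, the replication stress kinase, by 0.56 (SE 0.10). Only 5 repair genes fell without replicate 1 at 8 h, and likewise 5 without replicate 1 at 24 h. Of 27 cyclins, CDK inhibitors and pocket proteins 5 rose (18.5%, against 9.99% of all genes) and 4 fell (14.8%, against 9.4%). CDKN1A, the inhibitor p21, was -0.43, -0.51 and -0.42 at 8 h and 0.06, -0.04 and 0.13 at 24 h. It rose by 0.50 (SE 0.06, adjusted p = 0.000115). CDKN2B, the inhibitor p15, rose by 0.41 (SE 0.07) and CCNG2, a cyclin linked to cell cycle exit, by 0.59 (SE 0.07).

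**Figure D2:**
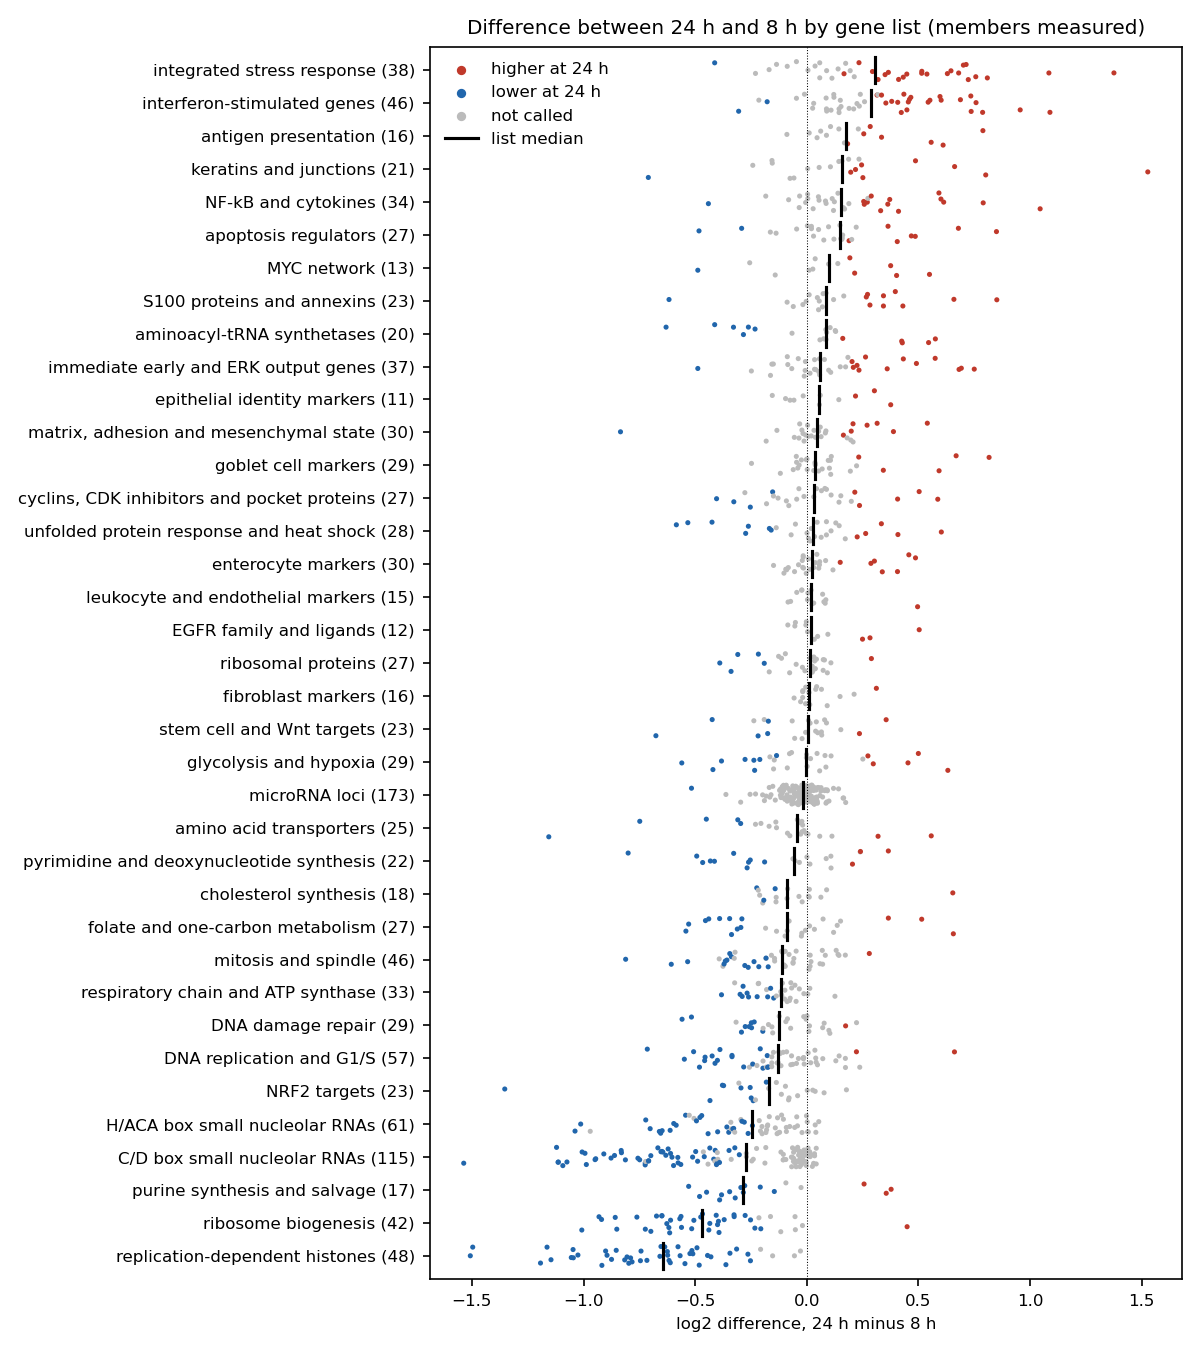
Log2 difference between 24 h and 8 h (x axis) for every measured member of the 37 lists, ordered by list median, with the number measured in parentheses. Each point is 1 gene, coloured by its call, and the black bar is the list median, which runs from -0.64 for histones to 0.31 for the integrated stress response.

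Ribosome biogenesis genes, which make and process ribosomal RNA and assemble the subunits, had the second lowest median. Of 42 measured, 35 fell and 1 rose, with a list median of -0.47, against 9.4% of all genes that fell. The list median was 0.37 to 0.42 on the 8 h arrays and -0.08 to -0.05 on the 24 h arrays. That put it above the control arrays, which lay at -0.06 to 0.01, at 8 h, while at 24 h it overlapped them. UTP20, of the small subunit processome, was 0.84, 0.59 and 0.68 at 8 h and -0.39, -0.16 and -0.37 at 24 h. It fell by 1.01 (SE 0.11, adjusted p = 3.31e-05). NOP16, a nucleolar assembly factor of the large subunit, went from 0.78, 0.64 and 0.56 to -0.33, -0.33 and -0.16. It fell by 0.93 (SE 0.07, adjusted p = 1.97e-06), so that every 24 h value was below 0 and every 8 h value above it. LYAR fell by 0.92 (SE 0.08), WDR12, of the PeBoW complex, by 0.86 (SE 0.07) and PNO1, a small subunit factor, by 0.85 (SE 0.06). POLR3G, a subunit of RNA polymerase III that came among the 15 largest falls of all genes, was 1.07, 0.86 and 1.06 at 8 h and -0.26, -0.10 and -0.17 at 24 h. It fell by 1.17 (SE 0.10, adjusted p = 6.26e-06). GEMIN5, of the complex that loads small nuclear RNAs with Sm proteins, went from 1.04, 0.99 and 1.15 to -0.03, 0.04 and -0.02, values that lay about the control median by 24 h. It fell by 1.06 (SE 0.07, adjusted p = 1.22e-06). The proteins of the ribosome itself did not follow as a list, with a median of 0.02. Of 27, 5 fell (18.5%, against 9.4% of all genes) and 1 rose (3.7%, against 9.99%). The falls numbered 3 when replicate 1 or 2 at 8 h or replicate 1 or 2 at 24 h was left out. RPL23 fell by 0.39 (SE 0.08) and RPL28 rose by 0.29 (SE 0.04).

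Small nucleolar RNAs, many of which guide the chemical modification of ribosomal RNA and which are mostly cut out of introns of host genes, fell as well. Of 115 C/D box RNAs, a class that guides methylation, 49 fell (42.6%) and 66 were not called, with a median of -0.27. Of 61 H/ACA box RNAs, which guide pseudouridylation, 24 fell (39.3%) and 37 were not called, with a median of -0.24. Over all genes 9.4% fell. Both lists were drawn by gene symbol, and the C/D box list also holds genes such as SNORD115-14, SNORD116-26 and SNORD13P1. Whether each member guides ribosomal RNA was not checked, and all members count in the shares and medians. SNORD14E had the largest fall of all 18377 genes. It was 0.37, 0.09 and 0.13 at 8 h and -1.41, -1.13 and -1.48 at 24 h, and fell by 1.54 (SE 0.17, adjusted p = 3.59e-05). SNORD14C was -0.08, 0.26 and 0.34 and then -0.98, -0.57 and -1.29. It fell by 1.12 (SE 0.19, adjusted p = 0.000815), with replicate 2 at 24 h the highest of its group. SNORA74A was 1.11, 1.14 and 1.42 and then 0.23, 0.14 and 0.26, and fell by 1.01 (SE 0.09, adjusted p = 5.74e-06). Some of these RNAs varied widely at 24 h: SNORA22 was -1.68, -0.12 and -2.42 there, and its difference of -0.97 (SE 0.43, adjusted p = 0.15) did not pass. SNORA22 was called without replicate 2 at 24 h (-1.61, adjusted p = 0.00122), with array weights (-1.30, adjusted p = 0.00406) and without the lowest-weight array of each group (adjusted p = 0.00408), while without replicate 3 at 24 h its difference was -0.46. Without replicate 2 at 24 h and replicate 1 at 8 h together, 52 C/D box and 26 H/ACA box RNAs fell.

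Host genes were found by position in the RefSeq table, without regard to strand, for 82 of the 176 small nucleolar RNAs, in 62 host genes. Of these hosts, 25 fell (40.3%, against 9.4% of all genes), 4 rose and 33 were not called, with a median of -0.15. The 82 RNAs had a median of -0.33, and in 57 of the 82 pairs the difference of the RNA was below that of its host. SNORD14E and SNORD14C lie within HSPA8, the constitutive HSP70 chaperone, whose own difference was 0.04 (adjusted p = 0.759). SNORD4B (-1.07) and SNORD4A (-0.63) lie within RPL23A (0.02, adjusted p = 0.87), and SNORD15B (-0.81) within RPS3 (0.04, adjusted p = 0.708). In other pairs the host fell too, as with SNORD53 (-0.76) in WDR43 (-0.65) and SNORA75 (-0.72) in NCL (-0.40), which encodes nucleolin. These pairs were chosen after their values were seen. Array probe sets of small RNAs may read the precursor, and whether that bears on these values was not tested.

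**Figure D3:**
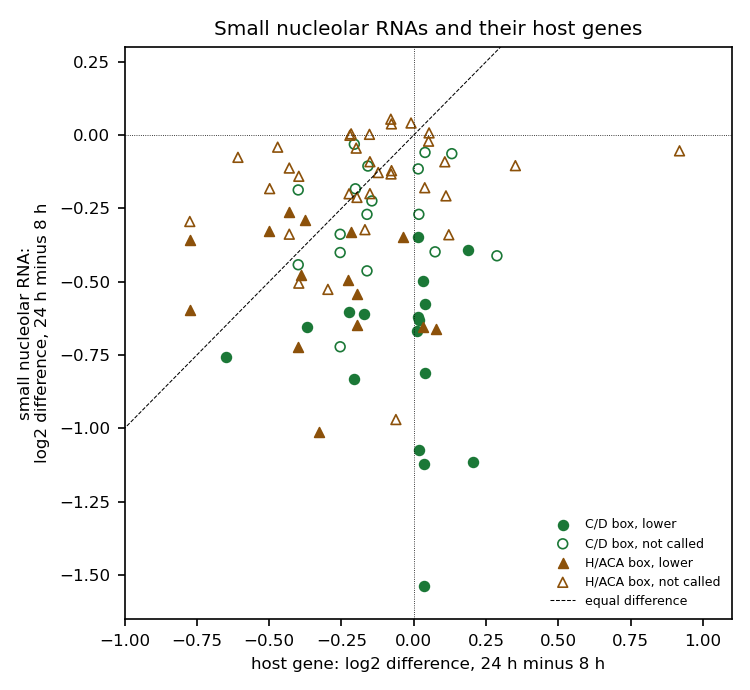
Difference between 24 h and 8 h of 82 small nucleolar RNAs (y axis, log2) against that of the gene they lie in (x axis, log2). Filled symbols are RNAs called lower, and a column of them stands near a host difference of 0, with SNORD14E at -1.54 and its host HSPA8 at 0.04.

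Of 17 genes of purine synthesis and salvage 12 fell and 3 rose, with a median of -0.28, against 9.4% of all genes that fell. Purine synthesis needs reduced folates, and salvage does not. The list median was 0.32 to 0.35 at 8 h and 0.09 to 0.12 at 24 h. GART, a folate-dependent enzyme of the pathway, was 0.46, 0.28 and 0.32 at 8 h and -0.23, -0.11 and -0.19 at 24 h. It fell by 0.53 (SE 0.07, adjusted p = 9.69e-05). PPAT, the enzyme of the committed step, fell by 0.48 (SE 0.09), PFAS by 0.45 (SE 0.07), PRPS1, which makes the ribose donor, by 0.39 (SE 0.05) and ADK, adenosine kinase, which acts in salvage, by 0.38 (SE 0.05). Of 22 genes of pyrimidine and deoxynucleotide synthesis 10 fell (45.5%, against 9.4% of all genes) and 3 rose (13.6%, against 9.99%). Only 1 rose without replicate 3 at 8 h or without replicate 1 or 3 at 24 h. DHODH, which makes orotate, was 0.88, 0.73 and 0.64 and then -0.06, -0.05 and -0.04. It fell by 0.80 (SE 0.07, adjusted p = 6.23e-06), and its 24 h values lay close to the control median. CAD fell by 0.49 (SE 0.07), CTPS1 by 0.47 (SE 0.05), UMPS by 0.43 (SE 0.06) and UCK2 by 0.41 (SE 0.06). TYMS, thymidylate synthase, the folate-dependent enzyme of DNA synthesis, was 0.76, 0.72 and 0.74 at 8 h and 0.69, 0.74 and 0.72 at 24 h. Its difference of -0.02 (SE 0.05, adjusted p = 0.86) did not pass, and the groups overlapped.

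Folate genes themselves moved in both directions, with more falls than rises. Of 27 measured, 10 fell (37.0%) and 3 rose (11.1%), with a median of -0.09, against 9.4% of all genes that fell and 9.99% that rose. SLC19A1, the reduced folate carrier that takes up methotrexate, was 0.30, 0.39 and 0.33 and then -0.04, -0.16 and -0.09. It fell by 0.44 (SE 0.06, adjusted p = 0.000204). FPGS, which adds the glutamate chain that keeps folates and methotrexate in the cell, fell by 0.30 (SE 0.07, adjusted p = 0.00895). That call was lost when the lowest-weight array of each group, replicate 1 at 8 h and replicate 2 at 24 h, was left out (adjusted p = 0.106). GGH, which removes that chain, did not pass (-0.02, SE 0.07). MTR, methionine synthase, fell by 0.54 (SE 0.09) and SLC25A32, the mitochondrial folate carrier, by 0.45 (SE 0.08). FOLR1, the folate receptor alpha, was -0.91, -0.77 and -0.79 at 8 h and -0.18, -0.07 and -0.25 at 24 h. It rose by 0.66 (SE 0.06, adjusted p = 8.09e-06). MTHFD2, a mitochondrial folate enzyme and known ATF4 target, went from -0.46, -0.59 and -0.50 to -0.03, -0.02 and 0.05. It rose by 0.52 (SE 0.06, adjusted p = 5.65e-05), and SHMT2, the mitochondrial serine enzyme, rose by 0.37 (SE 0.05).

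Integrated stress response genes had the highest median of the lists with all 12 arrays. The interferon-stimulated list stood higher without replicate 1 at 8 h (0.347 against 0.3456). It also did so without replicate 1 (0.3282 against 0.3084) or replicate 2 (0.3044 against 0.295) at 24 h. Of 38 integrated stress response genes measured, 22 rose and 1 fell, with a median of 0.31, against 9.99% of all genes that rose. The list median lay at -0.70 to -0.59 on the 8 h arrays and -0.49 to -0.38 on the 24 h arrays, below control in both groups. DDIT3, the transcription factor CHOP, was -1.25, -1.44 and -1.51 and then -0.58, -0.64 and -0.55. It rose by 0.81 (SE 0.07, adjusted p = 9.81e-06). ASNS was -1.10, -1.25 and -1.23 at 8 h and -0.54, -0.41 and -0.46 at 24 h, and rose by 0.72 (SE 0.06, adjusted p = 4.88e-06). NUPR1, a stress-induced chromatin protein and one of the 15 largest rises, went from -1.97, -1.97 and -1.88 to -0.58, -0.66 and -0.45. It rose by 1.38 (SE 0.08, adjusted p = 7.52e-07), and like DDIT3 and ASNS it was still under the control median at 24 h. KLHL24, a kelch-like ubiquitin ligase adaptor, rose by 1.08 (SE 0.10) and JDP2, a bZIP repressor of AP-1, by 0.76 (SE 0.07).

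Aminoacyl-tRNA synthetases, which charge transfer RNAs, split in both directions: of 20, 5 rose and 6 fell. Over all genes 9.99% rose and 9.4% fell, so both shares of this list were larger. SARS1, for serine, was -0.81, -0.76 and -0.71 and then -0.16, -0.28 and -0.11, and rose by 0.58 (SE 0.05, adjusted p = 1.15e-05). AARS1, for alanine, rose by 0.55 (SE 0.05), CARS1, for cysteine, by 0.43 (SE 0.06) and WARS1, for tryptophan, by 0.43 (SE 0.05). FARSB, for phenylalanine, was 0.34, 0.34 and 0.46 at 8 h and -0.26, -0.23 and -0.26 at 24 h. It fell by 0.63 (SE 0.05, adjusted p = 5.54e-06), so that members with the same enzymatic role moved in opposite directions. Of 25 amino acid transporters 2 rose and 5 fell, and 8 fell without replicate 3 at 48 h or with array weights. The share of transporters that rose was below the 9.99% of all genes, and the share that fell was above 9.4%. SLC38A5, a glutamine transporter and one of the 15 largest falls, was 1.19, 1.23 and 1.06 and then 0.02, -0.02 and 0.01. It fell by 1.16 (SE 0.06, adjusted p = 3.66e-07). SLC7A2, an arginine transporter, fell by 0.75 (SE 0.11), while SLC7A7 rose by 0.56 (SE 0.06) and SLC1A4 by 0.32 (SE 0.07). Heat shock and unfolded protein response genes were mixed too, with 5 higher and 7 lower of 28. Both shares were above those of all genes, 9.99% higher and 9.4% lower. HERPUD1, of endoplasmic reticulum degradation, rose by 0.60 (SE 0.05) and DNAJB9 by 0.41 (SE 0.09), while the chaperones HSPE1 and HSPH1 fell by 0.53 (SE 0.06) and 0.42 (SE 0.06). The falls in this list numbered 4 without replicate 1 or without replicate 2 at 24 h.

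**Figure D4:**
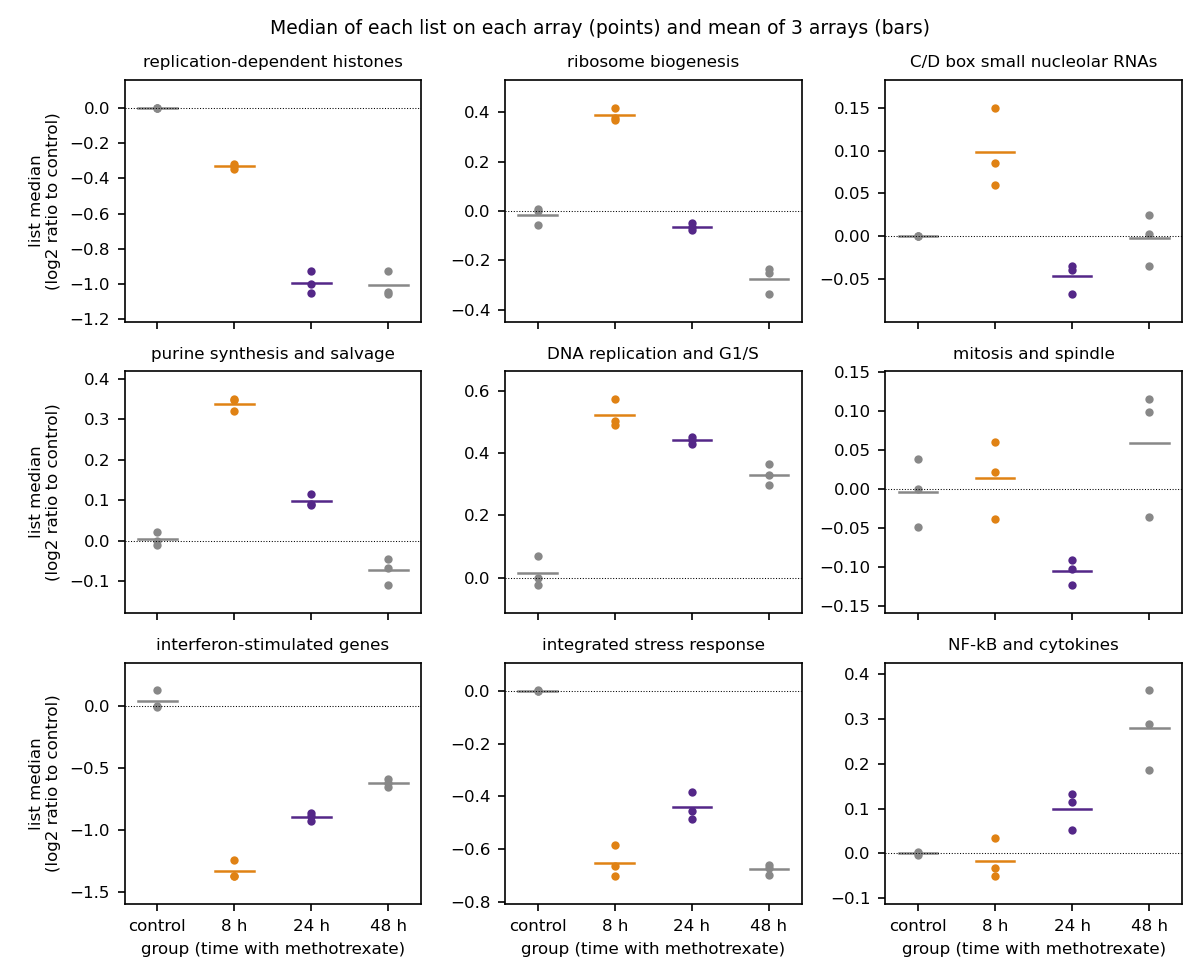
Median log2 ratio to control (y axis) of 9 lists on each of the 12 arrays, by group (x axis), with a point for each array and a bar for the mean of 3 arrays. The 8 h and 24 h arrays do not overlap in any panel, and the interferon-stimulated list runs from -1.38 to -1.24 at 8 h to -0.93 to -0.87 at 24 h.

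Interferon-stimulated genes, which encode antiviral proteins, were higher at 24 h than at 8 h. Of 46 measured, 22 rose and 2 fell, with a median of 0.29, against 9.99% of all genes that rose and 9.4% that fell. The list median was -1.38 to -1.24 on the 8 h arrays and -0.93 to -0.87 on the 24 h arrays, below control in both groups. MX2, an antiviral GTPase, was -2.82, -3.14 and -3.37 at 8 h and -2.10, -2.06 and -1.90 at 24 h. It rose by 1.09 (SE 0.12, adjusted p = 4.52e-05), a 2.13-fold higher level that was still far under control. XAF1, a pro-apoptotic interferon target, went from -2.28, -2.54 and -2.90 to -1.70, -1.54 and -1.61. It rose by 0.96 (SE 0.13, adjusted p = 0.000236). IRF9, the DNA-binding subunit of ISGF3, was -1.60, -1.64 and -1.63 and then -0.92, -0.88 and -0.71, and rose by 0.79 (SE 0.07, adjusted p = 6.03e-06). IFIT3, whose promoter holds the response element in 2 places, rose by 0.76 (SE 0.07) and IFI35 by 0.74 (SE 0.12).

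Antigen presentation genes rose in 7 of 16 cases (43.8%, against 9.99% of all genes) and 9 were not called, with a median of 0.18. When only genes with a single probe set were fitted, 10 members were left, 3 of them rose and the median was 0.13. TAPBPL, a peptide editor of MHC class I, was -0.36, -0.37 and -0.45 at 8 h and 0.36, 0.40 and 0.41 at 24 h. It rose by 0.79 (SE 0.05, adjusted p = 1.04e-06), crossing from below to above the control median on all arrays. The immunoproteasome subunits PSMB9 and PSMB8 rose by 0.61 (SE 0.07) and 0.34 (SE 0.07), and HLA-DMA, of MHC class II loading, by 0.56 (SE 0.07). NF-kB targets and cytokines were higher in 13 of 34 cases and lower in 1, with a median of 0.15, against 9.99% of all genes that rose. IL18, an epithelial cytokine, was 0.51, 0.28 and 0.40 at 8 h and 1.39, 1.53 and 1.41 at 24 h. It rose by 1.05 (SE 0.11, adjusted p = 1.98e-05). C3, the central complement protein, went from -0.10, -0.27 and -0.34 to 0.49, 0.58 and 0.59, and rose by 0.79 (SE 0.08, adjusted p = 1.23e-05). ICAM1, an adhesion molecule, rose by 0.61 (SE 0.08), CXCL8, interleukin 8, by 0.60 (SE 0.11) and IL32 by 0.59 (SE 0.07). SERPINA3, an acute phase protease inhibitor, was -1.32, -1.58 and -1.62 and then -0.20, -0.25 and -0.12. It rose by 1.32 (SE 0.07, adjusted p = 2.8e-07), one of the 15 largest rises, and STEAP4, a metalloreductase of inflamed tissue, rose by 1.17 (SE 0.08). IL20RB, a receptor chain for cytokines of the IL-20 family, was -0.71, -0.57 and -0.59 at 8 h and 0.80, 0.81 and 0.79 at 24 h. It rose by 1.42 (SE 0.05, adjusted p = 2.6e-08), with replicates that lay close together at 24 h.

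Immediate early genes and outputs of the ERK pathway rose in 12 of 37 cases and fell in 1, against 9.99% of all genes that rose. That fall was MYC, which is counted again in the MYC network below. The rises numbered 8 without replicate 1 or 3 at 8 h or replicate 3 at 24 h, and the falls 2 without replicate 2 at 24 h. DUSP10, a phosphatase of JNK and p38, was -0.53, -1.12 and -0.96 at 8 h and 0.58, 0.72 and 0.61 at 24 h. It rose by 1.51 (SE 0.13, adjusted p = 6.33e-06), with replicate 1 at 8 h above the other two of its group. JUN, a subunit of AP-1, was -0.45, -0.54 and -0.45 and then 0.23, 0.13 and 0.28. It rose by 0.69 (SE 0.05, adjusted p = 2.8e-06), and JUND rose by 0.58 (SE 0.07). DUSP1 rose by 0.75 (SE 0.06) and CCN1, a matricellular YAP target, by 0.68 (SE 0.07). ANKRD1, another known YAP target, went from -0.96, -0.92 and -1.25 to 0.44, 0.41 and 0.52, so that all 8 h values were below the control median and all 24 h values above it. It rose by 1.5 (SE 0.11, adjusted p = 3.16e-06). HBEGF, a ligand of the EGF receptor, rose by 0.50 (SE 0.06) and ERBB3 by 0.25 (SE 0.06), among 3 of 12 genes of that receptor family that rose.

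In the MYC network, MYC fell while MXD1, MXD3 and MXD4 rose. MYC was 0.18, 0.09 and 0.06 at 8 h and -0.36, -0.43 and -0.35 at 24 h, and fell by 0.49 (SE 0.06, adjusted p = 7.32e-05). The MXD proteins compete with MYC for its partner MAX. MXD4 was -0.66, -0.54 and -0.52 and then 0.07, -0.16 and 0.02, and rose by 0.55 (SE 0.07, adjusted p = 0.000103). MXD3 rose by 0.40 (SE 0.08) and MXD1 by 0.38 (SE 0.07). Of the 13 members 5 rose and 1 fell, MYC being that fall, against 9.99% of all genes that rose and 9.4% that fell.

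Of 27 regulators of apoptosis 7 rose and 2 fell, with a median of 0.15, against 9.99% of all genes that rose and 9.4% that fell. The falls numbered 1 without replicate 1 or 3 at 8 h and without replicate 1 or 3 at 24 h, and array weights gave 12 rises. TNFSF10, the death ligand TRAIL, was -1.15, -1.52 and -1.61 and then -0.64, -0.55 and -0.54, and rose by 0.85 (SE 0.10, adjusted p = 5.65e-05). BMF, which promotes cell death, rose by 0.68 (SE 0.06), and so did the protective genes BCL2L1 (0.49, SE 0.06) and CFLAR (0.47, SE 0.10). Members with opposite roles thus rose together. CYCS, cytochrome c, fell by 0.48 (SE 0.08).

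Of 21 keratins and junction genes, which give epithelial cells their structure, 8 rose and 1 fell, with a median of 0.16, against 9.99% of all genes that rose. KRT23, an acidic keratin, was -0.40, -0.65 and -0.67 at 8 h and 0.84, 1.04 and 0.98 at 24 h. It rose by 1.53 (SE 0.10, adjusted p = 9.14e-07), a 2.88-fold higher level. KRT80 went from 0.55, 0.47 and 0.56 to 1.34, 1.23 and 1.43, and rose by 0.80 (SE 0.08, adjusted p = 1.35e-05). KRT20, a keratin of differentiated gut epithelium, rose by 0.49 (SE 0.05) and CLDN1, a tight junction protein, by 0.66 (SE 0.07), while CLDN2, of leaky junctions, fell by 0.71 (SE 0.06). Outside that list, ELF5, an epithelial transcription factor, was 0.27, 0.16 and -0.02 and then 1.38, 1.51 and 1.33. It rose by 1.27 (SE 0.07, adjusted p = 5.53e-07), and the related ELF3 rose by 0.38 (SE 0.05). SCEL, sciellin, a precursor of the cornified envelope, rose by 1.21 (SE 0.10) and ANXA6, annexin A6, by 0.85 (SE 0.07). Of 23 S100 proteins and annexins, ANXA6 among them, 9 rose (39.1%, against 9.99% of all genes) and 1 fell. Of 30 enterocyte markers 7 rose and 23 were not called, and of 29 goblet cell markers 5 rose (17.2%) and 24 were not called, against 9.99% of all genes that rose. BCAS1 was -0.92, -1.05 and -1.11 at 8 h and -0.27, -0.18 and -0.18 at 24 h, and rose by 0.82 (SE 0.06, adjusted p = 1.6e-06). AGR2, a disulfide isomerase of mucus-making cells, rose by 0.59 (SE 0.06), whereas MUC2, the main secreted mucin of goblet cells, did not pass (-0.04, SE 0.05, adjusted p = 0.71). LGR5, a marker of intestinal stem cells, was 0.95, 0.76 and 0.77 and then 0.10, 0.30 and 0.05. It fell by 0.68 (SE 0.10, adjusted p = 0.000367). LGR5 was 1 of 5 genes (21.7%, against 9.4% of all genes) that fell among 23 stem cell and Wnt targets, while 2 rose. In that list 16 were not called, the median was 0.008, and 3 fell without replicate 2 at 24 h.

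Markers of cells other than the epithelium were measured beside these. Of 16 fibroblast markers 1 was called (6.25%, against 19.4% of all genes), ACTA2, smooth muscle actin (0.31, SE 0.06), with a median of 0.01. Of 15 leukocyte and endothelial markers 1 was called (6.67%), CD68, a lysosomal protein (0.50, SE 0.06), with a median of 0.02. Because levels were not known, whether these markers were expressed at all could not be measured. Of 30 genes of matrix, adhesion and the mesenchymal state 7 rose (23.3%, against 9.99% of all genes) and 1 fell. Without replicate 3 at 8 h 4 rose. TNC, tenascin C, was 1.77, 1.52 and 1.45 at 8 h and 0.61, 0.85 and 0.78 at 24 h, and fell by 0.83 (SE 0.09, adjusted p = 2.81e-05). PLAU, urokinase, rose by 0.54 (SE 0.08). CAV1, caveolin 1, rose by 0.39 (SE 0.10, adjusted p = 0.015), a call lost without replicate 3 at 8 h (adjusted p = 0.0606), without replicate 2 at 24 h (0.0589) and without the lowest-weight array of each group (0.0726).

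Metabolic genes outside the folate pathway included some large falls. AKR1B10, an aldo-keto reductase that reduces retinal and other aldehydes and a known NRF2 target, was 1.65, 1.52 and 1.56 at 8 h and 0.18, 0.24 and 0.26 at 24 h. It fell by 1.35 (SE 0.09, adjusted p = 9.14e-07). Of 23 NRF2 targets 9 fell (39.1%, against 9.4% of all genes) and 14 were not called. AKR1C2, a steroid-reducing relative, fell by 0.43 (SE 0.09), GCLC, of glutathione synthesis, by 0.38 (SE 0.07) and ME1, malic enzyme, by 0.29 (SE 0.05). Of 33 genes of the respiratory chain and ATP synthase 10 fell (30.3%) and 23 were not called. Among the falls were ATP5MC1 (-0.38, SE 0.05) and CYC1 (-0.29, SE 0.06). Of 29 glycolysis and hypoxia genes 5 rose (17.2%, against 9.99% of all genes) and 8 fell (27.6%). The falls numbered 5 without replicate 1 at 8 h and also 5 without replicate 2 at 24 h. LDHA, lactate dehydrogenase A, was 0.30, 0.38 and 0.40 and then -0.05, -0.03 and -0.10, and fell by 0.42 (SE 0.05, adjusted p = 5.14e-05). ENO2, a neuronal enolase, went from 0.07, 0.15 and 0.10 to 0.57, 0.58 and 0.53, and rose by 0.45 (SE 0.05, adjusted p = 3.05e-05), so glycolytic genes moved both ways. Of 18 genes of cholesterol synthesis 3 fell (16.7%) and 1 rose (5.56%), while 1 fell without replicate 1 at 8 h and 6 with array weights.

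The largest rise of all was outside the lists. TCP11L2 was -1.73, -2.14 and -1.98 at 8 h and -0.50, -0.28 and -0.46 at 24 h. It rose by 1.53 (SE 0.11, adjusted p = 2.67e-06), a 2.9-fold higher level that still lay under control. ACTBL2, an actin-like gene, was 0.21, -0.07 and -0.16 and then 1.35, 1.69 and 1.17, and rose by 1.41 (SE 0.18, adjusted p = 0.000115). PRSS1, trypsinogen, went from -1.63, -1.56 and -1.39 to -0.15, -0.24 and -0.08, and rose by 1.37 (SE 0.07, adjusted p = 2.47e-07). PRSS1 and ACTBL2 have close relatives in the genome, so their probes may read more than 1 gene. SLC16A4, a transporter of the monocarboxylate family, rose by 1.23 (SE 0.09), ANKRD29 by 1.18 (SE 0.08) and MMP24, a membrane metalloproteinase, by 1.18 (SE 0.07).

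The values of the 48 h and control arrays do not enter the difference between 24 h and 8 h, but these arrays enter the spread it is tested against. With the 6 arrays of 8 h and 24 h alone 3804 genes were called, and without replicate 3 at 48 h 4294. The difference between 48 h and control is set beside the other as a description. Both differences were tested against the same spread of each gene, so a gene with a small spread is called more easily in both. How much this adds to the shares of joint calls was not tested. Of the 1836 genes higher at 24 h than at 8 h, 897 (48.9%) were also called higher at 48 h than in control and 202 (11%) lower, against 13% and 12.3% of all genes. Of the 1728 lower genes, 716 (41.4%) were lower at 48 h than in control and 111 (6.42%) higher. Among the 14813 genes not called, the shares were 9.32% higher and 9.07% lower. Across all genes, which are not independent replicates, the correlation of the 2 differences was 0.397. Some genes had opposite signs: ASNS, higher at 24 h than at 8 h, was -1.44 (SE 0.06, adjusted p = 4.58e-09) at 48 h against control, and MX2 was -1.41 (SE 0.12, adjusted p = 2.55e-06). LGR5, lower at 24 h than at 8 h, was 0.77 (SE 0.10, adjusted p = 8.38e-05). H3C12 (-2.08, SE 0.07), MYC (-0.63, SE 0.06) and ELF5 (1.69, SE 0.07) had the same sign in both differences.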

How the data were processed

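RNA of HT29 cells was measured on Affymetrix human gene arrays, 3 per group. The authors deposited log2 values, made with RMA against hg19 per the submitters' processing notes, which give no versions. The control median was exactly 0 in all 28869 probe sets, so values are log2 ratios to it. How they were centred was not given in the sources used, and base 2 was taken from RMA. Of the probe sets, 19310 name 1 gene, 1752 several and 7807 none. A gene is the mean of its single-gene probe sets (more than 1 for 685 of 18377 genes), named by the platform annotation.

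All 12 arrays entered 1 limma 3.58.1 model in R 4.3.3 with a mean per group (8 residual and 4.71 prior degrees of freedom). Tests were two-sided, and p-values were adjusted over all genes. The fit was tested on simulated data. The 37 lists are described by counts and medians, with no set test. Lists can share genes, so their counts are not separate observations. The comparison and the lists were chosen with earlier results of these data known.

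Genes are named by a rule: the 15 largest rises and falls whose groups do not overlap, up to 5 called members of each list, and some genes of folate use and growth whatever their p. Small RNAs, skipped there, have the 3 largest rises and falls of each class. Some examples are left out for length. Array number limits the precision. Alternatives were array weights, array centring, other probe set rules, a robust prior, the 6 arrays alone, a replicate block and single arrays left out. Signal over background and scan dates were not used here. Counting and plots used Python 3.11.15, pandas 2.3.3 and matplotlib 3.10.9.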

Additional observations from a re-analysis of the deposited data

How the results depend on the processing

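Array weights raised the number of genes higher at 24 h from 1836 to 2797 and of genes lower from 1728 to 2452, the falls among H/ACA box RNAs from 24 to 37 and in the respiratory chain from 10 to 16, and the rises among apoptosis regulators from 7 to 12. With an adjusted p under 0.01, 2252 genes were called (1183 higher, 1069 lower), and with a change of at least 1.5-fold 435 were called (249 higher, 186 lower). Leaving out 1 of the 6 arrays gave 2726 to 3248 calls, 47.3% to 59.3% of them higher. The 6 arrays alone gave 3804 calls, and leaving out replicate 3 at 48 h 4294. Of 26 list counts of 1 to 3 calls in a direction, 15 moved by more than 1.5 times when some single array was left out. Deviations of same-numbered 8 h and 24 h arrays from their group means correlated at -0.445, -0.389 and 0.0243. Replicates 1, 2 and 3 at 8 h correlated best with replicates 2, 1 and 1 at 24 h. Deviations within a group of 3 arrays are not independent, so these values cannot show whether the samples were paired. With the replicate block 3823 genes were called. Without the lowest-weight array of each group, an alternative chosen after seeing the data, list medians moved by more than the replicate spread for C/D box small nucleolar RNAs (-0.3262), the MYC network (0.1369), S100 proteins and annexins (0.1229), epithelial identity markers (0.0312), folate genes (-0.1071) and immediate early genes (0.1004). Array weights gave 0.0328 for epithelial identity markers, and genes with a single probe set 0.1254 for antigen presentation. Leaving out 1 array (replicate 3 at 48 h included) gave medians of -0.3257 to -0.2341 for C/D box RNAs, 0.0523 to 0.1501 for the MYC network, 0.077 to 0.1264 for S100 proteins and annexins, 0.1596 to 0.2114 for antigen presentation, 0.0982 to 0.1489 for apoptosis regulators and 0.0098 to 0.0705 for epithelial identity markers. The ranges were -0.1095 to -0.0712 for folate genes, -0.0349 to -0.0013 for glycolysis, -0.3105 to -0.2506 for purine synthesis, -0.0171 to 0.0287 for ribosomal proteins and -0.5029 to -0.4326 for ribosome biogenesis. Among genes that were not called, the sign turned when single arrays were left out for GGH (-0.0979 to 0.0408, with 0.0015 without replicate 1 at 8 h), SNORA30 (-0.0046 to 0.1144, with -0.0005 without replicate 2 at 8 h), SNORA35 (-0.0002 to 0.0883) and SNORA70C (-0.0753 to 0.1318). The causes were not tested. Of 190 named genes that were called, 17 lost the call in at least 1 of 14 settings that change the fit or the arrays, 167 kept it in all 14, and 6 kept it in those that measured them, since they were absent where only genes with a single probe set were fitted. Signal over background is unknown.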

Other observations

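MicroRNA loci, which the arrays read as precursors or their surroundings and not as mature microRNAs, moved little. Of 173 loci 1 passed the test (0.578%, against 19.4% of all genes), MIR31. It was 0.17, 0.26 and 0.46 on the 8 h arrays and -0.26, -0.20 and -0.20 on the 24 h arrays, and fell by 0.52 (SE 0.07, adjusted p = 0.000313). Its RefSeq mature form, at chr9:21512158-21512178 on the minus strand of GRCh38.p14, is shown with the seed in capitals, because it is the locus that was called.
hsa-miR-31-5p: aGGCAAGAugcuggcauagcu
MIR31HG, the long RNA gene within which that locus lies, was looked up after the values of MIR31 were seen. It was -0.19, -0.19 and -0.25 at 8 h and 0.31, 0.57 and 0.40 at 24 h, and rose by 0.64 (SE 0.06, adjusted p = 1.23e-05), so the locus and its host differed in opposite directions. With array weights 7 loci fell, 4 fell without replicate 3 at 8 h or at 48 h and 3 without replicate 2 at 24 h.

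Probe sets outside the gene table were tested apart. Of those that name several genes, 125 were higher and 149 lower (15.6%), and of those that name none, 90 were higher and 196 lower (3.66%), against 19.1% of single-gene probe sets. The largest falls belonged to unnamed probe sets. A pair of them stood at -2.11, -0.79 and -2.17 on the 24 h arrays, so that replicate 2 stood highest, and the differences of the next were -1.35, -1.30 and -1.28. Among probe sets that name several genes, the probe set shared by H3C10 and H2AC13 was -1.24, that shared by SNORD5 and TAF1D -1.17 and that shared by GAS5 and SNORD47 -0.93. GAS5 is a host gene of many small nucleolar RNAs.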
